A study of Mus musculus with 22 samples.

Results

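The genes described here are 10 genes of MHC class I antigen presentation in mouse liver, taken as the rows of a count table whose gene symbol is H2-K1, H2-D1, B2m, Tap1, Tap2, Tapbp, Psmb8, Psmb9, Psmb10 or Nlrc5. All 10 were found among 55573 genes, and all 10 were among the 14062 genes with a mean of at least 10 counts per library that could be tested. The mice were 3 months old and on a C57BL/6 background, and each gave 1 library of liver mRNA. Cre mice carried Albumin-Cre with wild-type Flcn, and liver-Flcn-/- mice (labelled FLCN KO and called knockout mice from here on) carried Albumin-Cre with both Flcn alleles floxed, so the recombinase, which is driven by a hepatocyte promoter, was present in both genotypes. Mice of each genotype ate chow or a methionine and choline deficient (MCD) diet from 6 weeks of age for 6 weeks. There were 6 Cre and 5 knockout mice on chow and 5 Cre and 6 knockout mice on the MCD diet. The study asked how loss of Flcn in the liver alters the response to a diet that induces steatohepatitis.

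The libraries held 13751347 to 21144388 reads counted on genes. The liver label was borne out by its hepatocyte markers: the summed level of 6 of them, led by Alb, was 123712 ± 19983 CPM (TMM-scaled counts relative to library size, SD, n = 6) in Cre mice on chow and 69424 ± 7892 (n = 6) in knockout mice on the MCD diet, where it was lowest. Flcn was listed at 26.1 to 40.2 CPM in Cre mice on chow and at 16.7 to 24.2 CPM in knockout mice on chow, which did not overlap (fold 0.644, adjusted p = 0.0249). On the MCD diet it ranged from 18.2 to 39.9 CPM in Cre mice and from 17.6 to 32.6 CPM in knockout mice, which overlapped (fold 0.892, adjusted p = 0.567). Flcn was counted over the whole gene and in all cells of the liver, so this is a weak check of the genotype label on the MCD diet.

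MHC class I molecules show fragments of the cell's own proteins at its surface, where CD8 T cells and natural killer cells read them. The immunoproteasome cuts proteins into peptides, the TAP transporter carries the peptides into the endoplasmic reticulum, tapasin holds an empty class I molecule at the transporter, and a heavy chain pairs with beta-2-microglobulin around the peptide. Interferons raise many of these genes together, through IRF1 and the transactivator NLRC5. Hepatocytes carry little class I at rest compared with leukocytes and endothelial cells, which also reside in the liver.

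The heavy chain genes and B2m share a compact upstream element, and those stretches are shown because the MCD diet in Cre mice moved H2-D1 and B2m in opposite directions. The stretches are RefSeq promoter sequence of GRCm38.p6 at chr17:34000334-34000464 (minus strand, H2-K1), chr17:35262917-35263046 (plus strand, H2-D1) and chr2:122147543-122147639 (plus strand, B2m). Capitals mark matches to the letters AANNGAAA (an interferon response element core), GGGATTCCC (an NF-kB site), TGACG (a cAMP response element core) and CCAAT, each searched on both strands, so that a match on the other strand appears as its reverse complement.
H2-K1: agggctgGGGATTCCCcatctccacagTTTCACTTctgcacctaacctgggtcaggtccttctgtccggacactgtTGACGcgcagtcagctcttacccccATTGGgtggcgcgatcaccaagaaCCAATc
H2-D1: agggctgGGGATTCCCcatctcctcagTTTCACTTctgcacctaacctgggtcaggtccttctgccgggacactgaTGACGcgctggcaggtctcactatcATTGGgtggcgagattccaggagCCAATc
B2m: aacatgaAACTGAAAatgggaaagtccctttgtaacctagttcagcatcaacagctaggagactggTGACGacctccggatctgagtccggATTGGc

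Both heavy chain stretches held the same matches in the same order, and B2m held the interferon core, the cAMP core and 1 CCAAT. The printed H2-K1 stretch runs past 1 of its 2 RefSeq starts, at 34000347, and ends 1 base before the other. Of 32851 RefSeq windows of the same length (250 bases before to 50 after a start), 23.9% held the interferon core, 0.353% the NF-kB site, 20.8% the cAMP core and 37.4% a CCAAT. RefSeq windows were matched for 8 of the 10 genes, all but Tap2 and Nlrc5. In the others the matches were fewer: Tap1 and Psmb9 held TGACG and CCAAT, Tapbp CCAAT, Psmb8 a gamma-activated site (TTCNNNGAA, in 8.30% of windows) and Psmb10 an E-box (CACGTG, 7.15%). A match describes letters in a window and not a bound site.

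Per kilobase of exon, the 10 genes spanned nearly 3 orders of magnitude. B2m stood first at 2029 CPM per kb over the 22 libraries, followed by the heavy chains H2-K1 (364 CPM per kb) and H2-D1 (216 CPM per kb). Tapbp, which encodes tapasin, followed at 30.1 CPM per kb, and the catalytic immunoproteasome subunits Psmb10, Psmb8 and Psmb9 had 17.7, 10.9 and 4.74 CPM per kb. The TAP transporter subunits Tap2 and Tap1 had 9.39 and 4.67 CPM per kb, and Nlrc5 was last at 2.18 CPM per kb. In Cre mice on chow Psmb9 (5.84 ± 0.76 CPM per kb, SD, n = 6) and Tap1 (5.72 ± 0.80) did not differ beyond their spread. The lowest single count behind any of these values was 126 reads, of Psmb9 in 1 knockout mouse on the MCD diet.

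H2-K1, H2-D1, Tap1, Tap2, Tapbp, Psmb8 and Psmb9 lie on chromosome 17 between 33915899 and 35267499 (GENCODE M21 on GRCm38), B2m on chromosome 2, and Psmb10 and Nlrc5 on chromosome 8. Tap1 and Psmb9 share 212 exonic bases on opposite strands, and exons of Tap2, Tapbp, Psmb8 and Nlrc5 overlap other genes by 698, 904, 498 and 78 bases on the opposite strand. The strand setting of the counting was not given in the sources used here, so reads in these stretches cannot be assigned to 1 gene with certainty. The heavy chain genes are near copies of each other, and how reads that fit several of them were counted is uncertain in the same way.

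Some libraries stood apart, and the results that rest on them are given with that in view. H2-T10, a nonclassical class I heavy chain, was at 1.37 to 3.58 CPM in 12 libraries and at 14.8 to 61.0 CPM in the other 10. The high libraries were 1 of 6 Cre mice on chow (replicate 4), 1 of 5 Cre mice on MCD (replicate 3), 4 of 5 knockout mice on chow (replicates 2 to 5) and 4 of 6 knockout mice on MCD (replicates 2 to 5). They made up 8 of the 11 knockout livers and 2 of the 11 Cre livers. H2-K1 was lower in the high libraries of every group. In Cre mice on chow it was 1027 CPM in the high library and 1433 to 1570 CPM in the other 5, and in Cre mice on MCD 718 CPM in the high library and 1083 to 1315 CPM in the other 4. In knockout mice on chow it was 726 to 1258 CPM in the 4 high libraries and 1409 CPM in the other 1, and on MCD 435 to 802 CPM against 882 and 1026 CPM.

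**Figure D1:**
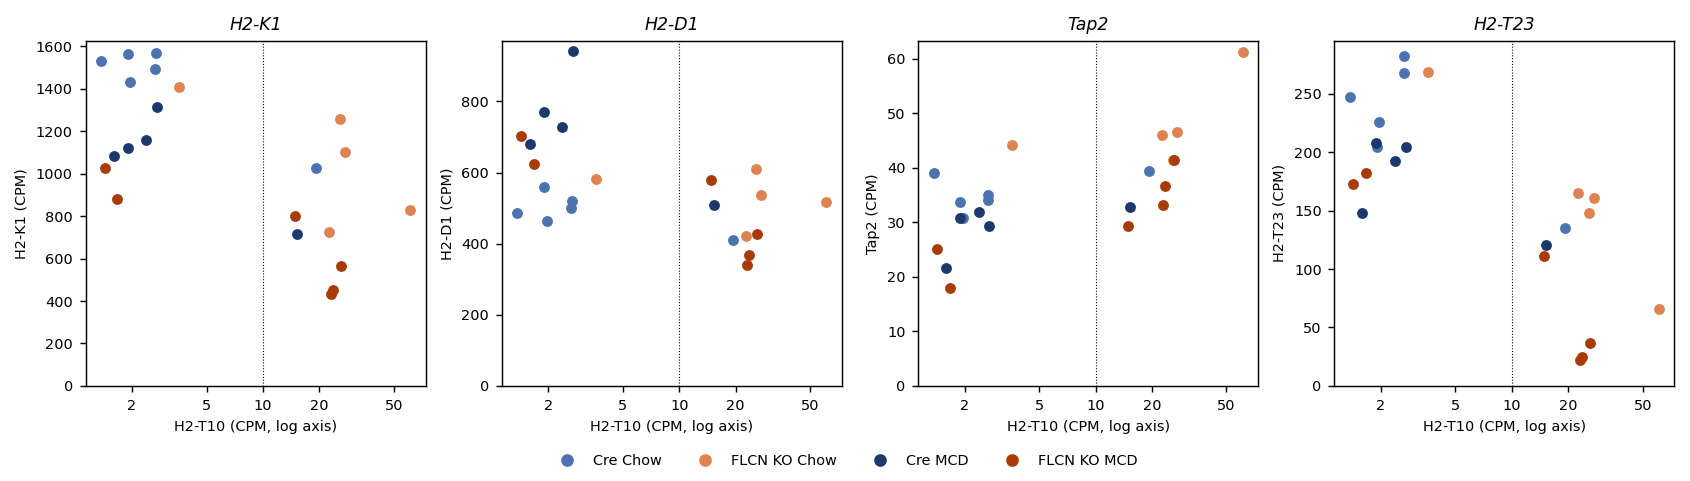
Level of H2-K1, H2-D1, Tap2 and H2-T23 (CPM, linear vertical axes) against that of H2-T10 (CPM, log axis) in the 22 livers, coloured by group, with a dotted line at 10 CPM. Within each group H2-K1 and H2-T23 are lower in the libraries to the right of the line, and no library lies between 3.58 and 14.8 CPM of H2-T10.

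With H2-T10 (log2 CPM) as a numeric term beside the 4 groups, 76 of 14061 other genes had a slope past an adjusted p of 0.05 in edgeR's quasi-likelihood test (0.541% in either direction). H2-K1 was among them (slope -0.20 ± 0.04 log2 units per log2 unit, SE, adjusted p = 0.00578), as were H2-T22 (-0.41, adjusted p = 0.00334), H2-T23 (-0.41, adjusted p = 0.00611) and H2-Q10 (0.14, adjusted p = 0.00840). The slopes of H2-D1 (-0.13, adjusted p = 0.0915) and Tap2 (0.13, adjusted p = 0.0840) did not pass, and those of the other 7 members had adjusted p of 0.479 or more. Of the genes tested on chromosome 17, 2.70% were called, against 0.427% elsewhere, and the chromosome 17 calls lay between 24727820 and 36971396. The labels give the strain of the mice and no MHC haplotype. Whether all mice carried the same one was not tested. Tap1, Tap2, Tapbp, Psmb8 and Psmb9 lie within the stretch of the chromosome 17 calls, as do H2-K1, H2-D1, H2-T10 and H2-T23. If some mice carried another haplotype, the counts of all these genes would also reflect how well its reads align to the reference. The counts could then not be compared as levels between those livers. The part of this difference between libraries in the group comparisons was tested only by the fit with H2-T10 as a term, whose values stand beside the calls it changed.

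Libraries also differed in other ways. Replicate 3 of the Cre mice on MCD held 1822 CPM summed over 6 skeletal muscle markers, led by Acta1, against 0.882 to 95.2 CPM in the other 21 libraries. By Xist and Ddx3y, each group held both male and female livers, and of the 12 libraries with high Xist, 5 also had Ddx3y at 5.35 to 15.6 CPM (replicate 2 of Cre mice on chow, replicate 1 of Cre mice on MCD, replicates 2 and 4 of knockout mice on chow and replicate 3 of knockout mice on MCD), and the other 7 had 0 to 1.36 CPM. With Xist as a term in the fit the number of members called was the same in each of the 5 comparisons. TMM factors, which correct for the share of reads taken by a few abundant genes, were 0.846 ± 0.028 (SD) in Cre mice and 0.938 ± 0.020 in knockout mice on chow, and 1.13 ± 0.05 and 1.13 ± 0.04 on MCD. The choice between TMM and plain scaling by total count therefore shifted the median log2 fold change of all tested genes by 0.42 for the MCD diet in Cre mice, by 0.26 in knockout mice, by 0.15 for genotype on chow, by -0.01 for genotype on MCD and by -0.16 for the interaction.

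**Figure D2:**
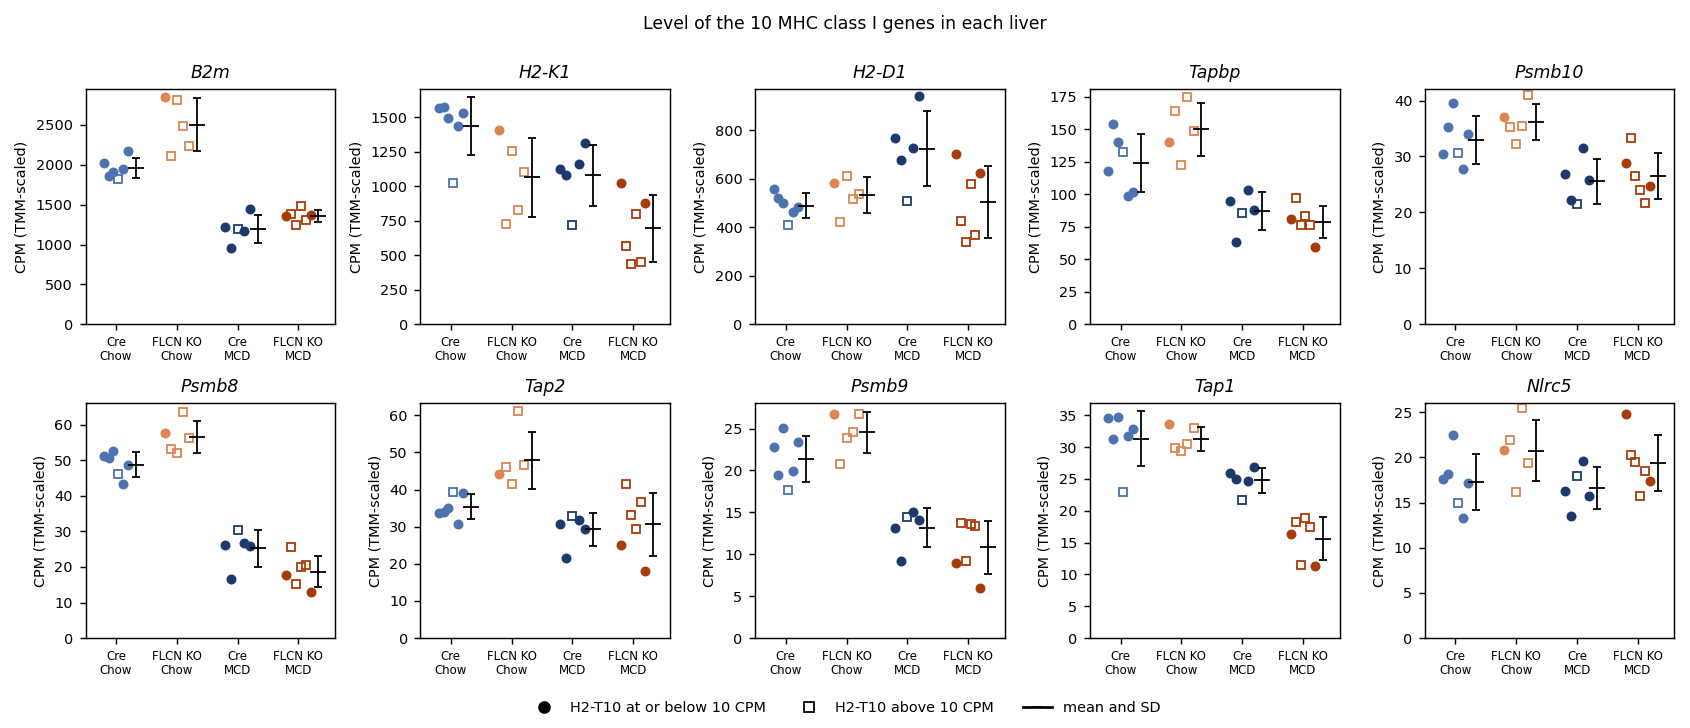
Level of the 10 genes in each of the 22 livers (TMM-scaled CPM, linear axes from 0) by genotype and diet, with the mean and SD of each group, and open squares for libraries with H2-T10 above 10 CPM. Under TMM scaling B2m and Psmb8 sit lower in every liver on MCD than in any liver on chow of the same genotype (with scaling by total count they remain lower on average), and H2-D1 has its highest group mean, 725 CPM, in Cre mice on MCD.

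The comparisons below share groups of mice with each other, so they are given side by side and are not independent. The first asked what the MCD diet did to these genes in Cre mice. Of the 10, H2-D1 rose and B2m, Tap1, Tapbp, Psmb8, Psmb9 and Psmb10 fell under TMM scaling, whereas with scaling by total count H2-D1 and Nlrc5 rose, B2m and Psmb8 fell, and H2-K1, Tap1, Tap2, Psmb10 and Nlrc5 changed sign. The diet called 29.3% of all tested genes as higher and 28.2% as lower (56.2% and 12.4% with scaling by total count), so 1 member of 10 higher and 6 of 10 lower are to be read against the share of all genes that the diet moved each way. The median log2 fold change was -0.39 over the members and 0.01 over all tested genes (0.03 and 0.43 with scaling by total count). The scaling shifts all genes nearly alike, so the gap between these medians is nearly the same under both by construction.

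B2m, the light chain shared by all classical class I molecules, was at 1827, 1929 and 2174 CPM (lowest, median and highest of 6) in Cre mice on chow. On the MCD diet the 5 Cre mice had 954, 1169, 1196, 1218 and 1441 CPM. Every mouse on MCD was below every mouse on chow, with a fold of 0.611 (log2 fold change -0.71 ± 0.10, SE, adjusted p = 4.3e-06; -0.29, adjusted p = 0.00682, with scaling by total count).

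H2-D1, 1 of the classical heavy chains, went the other way. Its level was 411, 492 and 559 CPM (lowest, median and highest of 6) on chow and 509, 679, 727, 769 and 941 CPM in the 5 Cre mice on MCD. Only replicate 3 on MCD, at 509 CPM, fell within the range on chow. That library held muscle RNA and was the only library of its group with H2-T10 above 10 CPM. Without it the log2 fold change was 0.67 (adjusted p = 0.00205). The fold was 1.48 (log2 fold change 0.56 ± 0.17, adjusted p = 0.00789; 0.98, adjusted p = 2.23e-05, with scaling by total count). H2-K1, the other classical heavy chain, averaged 1436 ± 207 CPM (SD, n = 6) on chow and 1079.6 ± 221 CPM (n = 5) on MCD and did not pass the test (-0.41 ± 0.22, adjusted p = 0.113). With H2-T10 as a term it did (-0.41, adjusted p = 0.0173), and with scaling by total count its log2 fold change was 0.01.

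Psmb8, the immunoproteasome subunit that replaces Psmb5, had 43.4, 49.6 and 52.7 CPM (lowest, median and highest of 6) on chow. It had 16.7, 25.9, 26.2, 26.8 and 30.4 CPM in the 5 Cre mice on MCD. The groups did not overlap, and the fold was 0.516 (log2 fold change -0.95 ± 0.14, adjusted p = 9.72e-06; -0.54, adjusted p = 0.00334, with scaling by total count). Psmb9, which replaces Psmb6 and whose promoter region it shares with Tap1, was 0.617-fold (-0.70 ± 0.17, adjusted p = 0.00167), again with no overlap, but at -0.28 (adjusted p = 0.17) it did not pass with scaling by total count.

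Among the remaining members, Tapbp had a log2 fold change of -0.51 ± 0.14 (adjusted p = 0.00354), Psmb10 of -0.36 ± 0.12 (adjusted p = 0.0106) and Tap1 of -0.34 ± 0.13 (adjusted p = 0.0285) under TMM scaling, whereas with scaling by total count these were -0.10, 0.05 and 0.08 and none passed. Tap1 also lost its call without a count filter (adjusted p = 0.0699), with at least 10 counts in every library (0.0566), without the 5 chow libraries whose reads aligned uniquely less often (0.199), and without replicate 1 or 3 on chow or replicate 3 or 4 on MCD, where the adjusted p was 0.0501 to 0.0705. Tap2 (-0.27 ± 0.16, adjusted p = 0.152) and Nlrc5 (-0.06 ± 0.14, adjusted p = 0.738) did not pass the test under TMM scaling, and their values with scaling by total count were 0.15 and 0.36 (adjusted p = 0.0327 for Nlrc5).

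**Figure D3:**
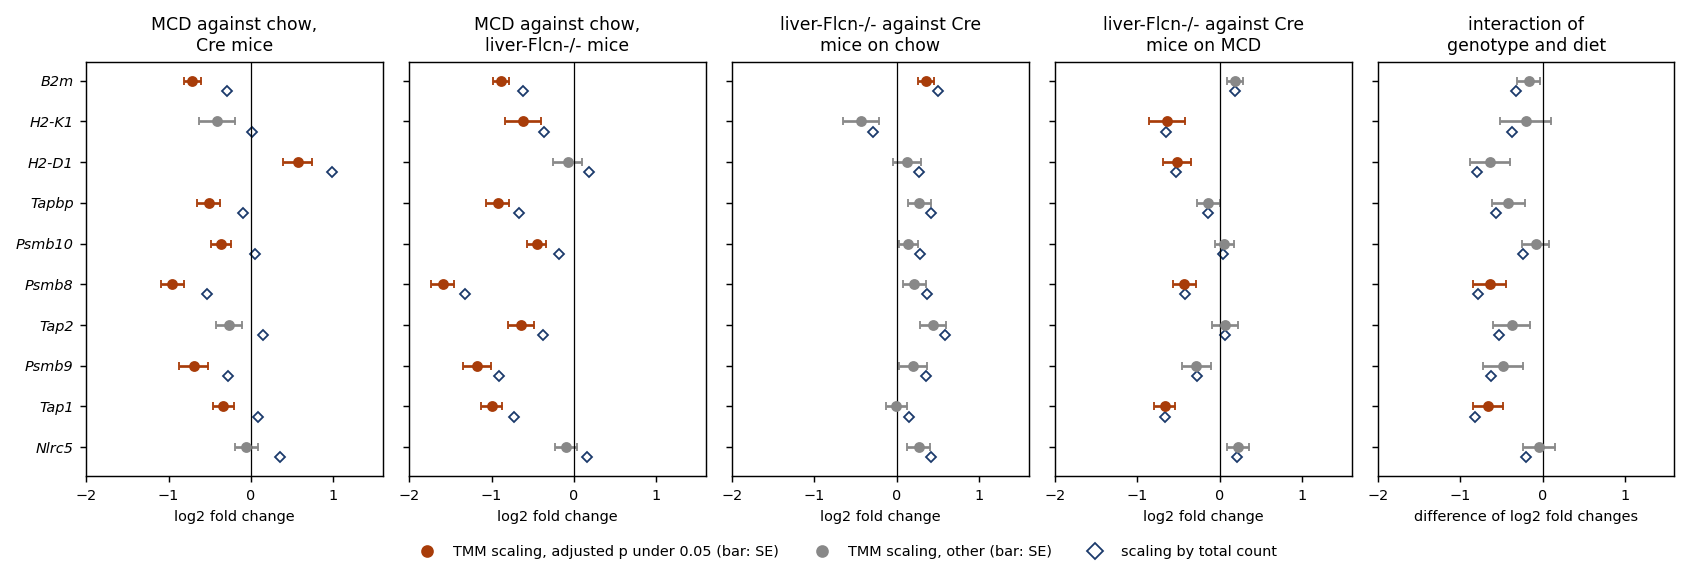
Log2 fold change of the 10 genes in the 4 group comparisons and the difference of 2 log2 fold changes in the interaction (horizontal axes), with the SE as a bar and red for an adjusted p under 0.05 with TMM scaling. Open diamonds give scaling by total count, which moves the diet comparisons to the right, so that 5 members cross 0 in Cre mice and 2 in knockout mice, and leaves genotype on MCD nearly where it was.

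In knockout mice the MCD diet lowered 8 of the 10 members and raised 0 (edgeR, adjusted p; the count at an unadjusted p under 0.05 was the same 8, and limma-voom and DESeq2 also called 8 lower and 0 higher). In all tested genes 22.5% were called higher and 22.5% lower. With scaling by total count 5 members were called lower and 0 higher, against 41.3% and 12.3% of all genes, and H2-D1 and Nlrc5 changed sign. The median log2 fold change was -0.76 over the members and 0.00 over all tested genes (-0.50 and 0.27 with scaling by total count).

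Of the immunoproteasome genes, Psmb8 and Psmb9 had the largest decreases of the 10 members under both scalings. Psmb8 was at 52.1, 53.1, 56.2, 57.5 and 63.6 CPM in the 5 knockout mice on chow and at 13.1, 18.9 and 25.7 CPM (lowest, median and highest of 6) on MCD. The highest liver on MCD lay below the lowest on chow by more than the range of either group. The fold was 0.332 (log2 fold change -1.59 ± 0.14, adjusted p = 1.99e-08; -1.32 with scaling by total count). Psmb9 was 0.442-fold (-1.18 ± 0.17, adjusted p = 1.04e-05; -0.91 with scaling by total count), and the third catalytic subunit, Psmb10, was 0.733-fold under TMM scaling (-0.45 ± 0.12, adjusted p = 0.00308) but did not pass with scaling by total count (-0.19, adjusted p = 0.206).

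Of the members that act in peptide transport and loading, Tap1 and Tapbp fell under both scalings and Tap2 under TMM scaling. Tap1 was at 29.4, 29.8, 30.5, 32.9 and 33.6 CPM on chow and at 11.4, 16.9 and 18.8 CPM (lowest, median and highest of 6) on MCD. The groups did not overlap, and the fold was 0.501 (-0.998 ± 0.127, adjusted p = 2.06e-06; -0.73 with scaling by total count). Tapbp was 0.526-fold (-0.93 ± 0.14, adjusted p = 1.48e-05; -0.66 with scaling by total count). Tap2 was 0.639-fold under TMM scaling (-0.65 ± 0.16, adjusted p = 0.00215) and at -0.38 did not pass with scaling by total count (adjusted p = 0.0636).

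B2m was at 2115, 2239, 2482, 2816 and 2855 CPM on chow and at 1249, 1362 and 1488 CPM (lowest, median and highest of 6) on MCD. The groups did not overlap (fold 0.543, log2 fold change -0.88 ± 0.10, adjusted p = 4.13e-07; -0.62 with scaling by total count). H2-K1 had 726, 829.3, 1101, 1258 and 1409 CPM on chow and 435, 684 and 1026 CPM (lowest, median and highest of 6) on MCD, and the groups overlapped. Its fold of 0.652 passed the test under TMM scaling (-0.62 ± 0.22, adjusted p = 0.0248), more clearly with H2-T10 as a term (-0.89, adjusted p = 5.92e-05), but not with scaling by total count (-0.36, adjusted p = 0.154), without the 5 chow libraries whose reads aligned uniquely less often (-0.35, adjusted p = 0.286) or with only the groups compared (-0.62, adjusted p = 0.0514). It also did not pass without replicate 1 or 3 on chow or replicate 2, 3 or 5 on MCD, where the adjusted p was 0.0544 to 0.0807.

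H2-D1 (-0.08 ± 0.17, adjusted p = 0.744) and Nlrc5 (-0.10 ± 0.14, adjusted p = 0.581) did not pass the test in knockout mice under TMM scaling, and with scaling by total count their values were 0.18 and 0.16. H2-D1 ranged from 422 to 611 CPM on chow and from 341 to 701 CPM on MCD. The range on MCD enclosed that on chow.

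The interaction asks whether the response to the diet differed between the genotypes. It was negative for all 10 members under both scalings and was called for 2 of them, Tap1 and Psmb8 (3 with scaling by total count, H2-D1 added). The median was -0.39 over the members and 0.03 over all tested genes (-0.54 and -0.13 with scaling by total count). In all tested genes 3.29% had a higher and 5.54% a lower response in knockout mice. Tap1 fell by 0.34 on the log2 scale in Cre mice and by 0.998 in knockout mice under TMM scaling, a difference of -0.66 ± 0.18 (adjusted p = 0.025), and in Cre mice its direction turned with scaling by total count. Its call held in each of the 22 fits without 1 library, with an adjusted p of 0.0157 to 0.0465. Psmb8 had a difference of -0.64 ± 0.20 (adjusted p = 0.0485), and its call held in 2 of those 22 fits, with an adjusted p of 0.0102 to 0.0944. The Psmb8 call was lost with H2-T10 as a term (-0.56, adjusted p = 0.0806), as it was with limma-voom (adjusted p = 0.055) and without a count filter (adjusted p = 0.0653). H2-D1 had -0.64 ± 0.24 (adjusted p = 0.101), which passed with H2-T10 as a term (-0.83, adjusted p = 0.0139) and with scaling by total count (-0.80, adjusted p = 0.0318). Tap1 was called in 8 of the 10 other alternatives. None of the 10 members was called without the 5 chow libraries whose reads aligned uniquely less often or with the replicate number as a block.

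On chow, the knockout mice were compared with the Cre mice without the MCD diet. The knockout mice came from a cross in which both parents had floxed Flcn alleles. The Cre mice had wild-type Flcn and so did not come from that cross. In every comparison of genotype, loss of Flcn therefore cannot be told apart from other differences between the parents. B2m was the only member called, higher in knockout mice by 1.28-fold (log2 fold change 0.35 ± 0.10, adjusted p = 0.0281), and 0 were called lower. The count at an unadjusted p under 0.05 was 2. In all tested genes 5.52% were called higher and 3.10% lower. The 5 knockout mice had the B2m levels given above, from 2115 to 2855 CPM, and the 6 Cre mice 1827 to 2174 CPM, so that only the lowest knockout mouse lay within the Cre range. The B2m call was lost without the 5 chow libraries whose reads aligned uniquely less often (adjusted p = 0.27), without a count filter (adjusted p = 0.0506) and with H2-T10 as a term (0.41, adjusted p = 0.0599), and in 6 of the 22 fits that left out 1 library, each of them a chow library (replicates 2, 4 and 5 of the Cre mice and 1, 3 and 4 of the knockout mice), where the adjusted p was 0.0506 to 0.0802.

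Tap2 was at 30.9, 34.5 and 39.4 CPM (lowest, median and highest of 6) in Cre mice on chow and at 41.5, 44.1, 46.0, 46.5 and 61.2 CPM in the 5 knockout mice. The groups did not overlap, the exact permutation p was 0.00216, the smallest this design can give, and the fold of 1.35 did not pass in the fit across all genes (0.44 ± 0.16, adjusted p = 0.0896). It passed with scaling by total count (0.59, adjusted p = 0.0249) and with only the groups compared (adjusted p = 0.0216). With H2-T10 as a term the difference was 0.09 (adjusted p = 0.828). H2-K1 was lower on average (-0.43 ± 0.22, adjusted p = 0.24) and 0.11 with H2-T10 as a term, a change of sign. The other 7 members had log2 fold changes of -0.00 to 0.27 under TMM scaling and of 0.15 to 0.42 with scaling by total count, and none passed in either.

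On the MCD diet, H2-K1, H2-D1, Tap1 and Psmb8 were lower in knockout mice than in Cre mice, and 0 members were higher (edgeR; 4 members had an unadjusted p under 0.05, and limma-voom and DESeq2 called 4 lower and 0 higher). Tap1 alone was called without a count filter, with only the groups compared or without the 5 chow libraries whose reads aligned uniquely less often. In all tested genes 8.06% were called higher and 8.53% lower. With scaling by total count 3 of the 4 passed, and Psmb8 had an adjusted p of 0.0585. Tap1 was at 21.7, 24.6, 24.99, 25.9 and 26.9 CPM in the 5 Cre mice and at 11.4, 16.9 and 18.8 CPM (lowest, median and highest) in the 6 knockout mice, without overlap. How many of all tested genes did not overlap was not counted. The fold of Tap1 was 0.63 (-0.67 ± 0.13, adjusted p = 0.00106), and it passed in each of the 22 fits without 1 library and each of the other 11 alternatives.

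The other 3 calls were less firm. H2-K1 was 0.643-fold (-0.64 ± 0.22, adjusted p = 0.0478), H2-D1 0.698-fold (-0.52 ± 0.17, adjusted p = 0.042) and Psmb8 0.743-fold (-0.43 ± 0.14, adjusted p = 0.042), and for each the groups overlapped. They passed in 7, 16 and 14 of the 22 fits without 1 library. Only 1 member was left without replicate 1, 4 or 5 of the Cre mice or replicate 3 of the knockout mice on MCD, and 2 without replicate 2, 4 or 5 of the latter. With H2-T10 as a term Tap1 (-0.62, adjusted p = 0.0039) and Psmb8 (-0.53, adjusted p = 0.0127) passed, and H2-K1 (-0.37, adjusted p = 0.0924) and H2-D1 (-0.34, adjusted p = 0.106) did not. In the 3 lowest livers for H2-K1, replicates 3, 5 and 2 of the knockout mice, H2-K1 was 435, 454 and 566 CPM, H2-D1 341, 367 and 427 CPM and H2-T23 22.2, 24.4 and 37.0 CPM, whereas replicates 1, 4 and 6 had 802 to 1026 CPM of H2-K1 and 111 to 182 CPM of H2-T23.

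Over the 4 group comparisons, 22 of the 40 two-sided exact permutation tests of a member had a p under 0.05, with no adjustment. These were 9 of 10 for the diet in Cre mice, where 57.1% of all tested genes passed the same test, and 7 of 10 for the diet in knockout mice, where 52.0% did. For genotype they were 4 of 10 on chow, against 23.9% of all genes, and 2 of 10 on MCD, against 27.0%. All of these tests used TMM-scaled levels. Of the 9 members for the diet in Cre mice, H2-K1, Tap1, Tap2 and Psmb10 changed sign with scaling by total count.

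Ratios of 2 genes within a library do not depend on how libraries are scaled. Psmb8, Psmb9 and Psmb10 take the places of Psmb5, Psmb6 and Psmb7 when the immunoproteasome is built, so each was divided by its constitutive partner (counts per kb of exon). Psmb8 to Psmb5 was 0.253 ± 0.033 (SD, n = 6) in Cre mice on chow and 0.111 ± 0.052 (n = 5) on MCD, and 0.329 ± 0.038 (n = 5) and 0.0841 ± 0.0186 (n = 6) in knockout mice. In both genotypes every liver on MCD was below every liver on chow, with a fold of 0.398 in Cre mice and 0.252 in knockout mice (two-sided exact permutation p = 0.00216 in each, the smallest possible). Part of that fold came from Psmb5, which rose by 0.40 (adjusted p = 0.0213) and 0.37 (adjusted p = 0.046) on the log2 scale, more so with scaling by total count (0.84 and 0.63).

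Psmb9 to Psmb6 fell from 0.0834 ± 0.0124 to 0.0562 ± 0.0146 in Cre mice (fold 0.659, exact permutation p = 0.00649) and from 0.118 ± 0.010 to 0.0506 ± 0.0157 in knockout mice (fold 0.411, exact permutation p = 0.00216). Psmb10 to Psmb7 did not pass in either genotype, with folds of 1.04 (exact permutation p = 0.708) and 0.908 (exact permutation p = 0.236). Psmb7 fell beside Psmb10 under TMM scaling (-0.42, adjusted p = 0.000178, in Cre mice and -0.32, adjusted p = 0.00284, in knockout mice), though with scaling by total count its values were 0.00 and -0.06. On chow the 3 ratios were higher in knockout than in Cre mice, by 1.43-fold for Psmb9 to Psmb6 (exact permutation p = 0.00433, no overlap), 1.30-fold for Psmb8 to Psmb5 (exact permutation p = 0.0108) and 1.26-fold for Psmb10 to Psmb7 (exact permutation p = 0.039). Psmb6 was itself lower in knockout mice on chow under TMM scaling (131.7 ± 9.75 CPM in Cre and 106.1 ± 5.44 CPM in knockout mice, log2 fold change -0.31, adjusted p = 0.0318; -0.16, not called, with scaling by total count), and Psmb9 did not pass (0.20, adjusted p = 0.512). Psmb9 was 0.35 (adjusted p = 0.227) with scaling by total count, so the larger share of the ratio's difference lay in Psmb6 under TMM scaling and in Psmb9 with scaling by total count. On MCD none of the 3 differed past the threshold (exact permutation p = 0.331 to 0.561). These were 12 tests, whose p are unadjusted.

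**Figure D4:**
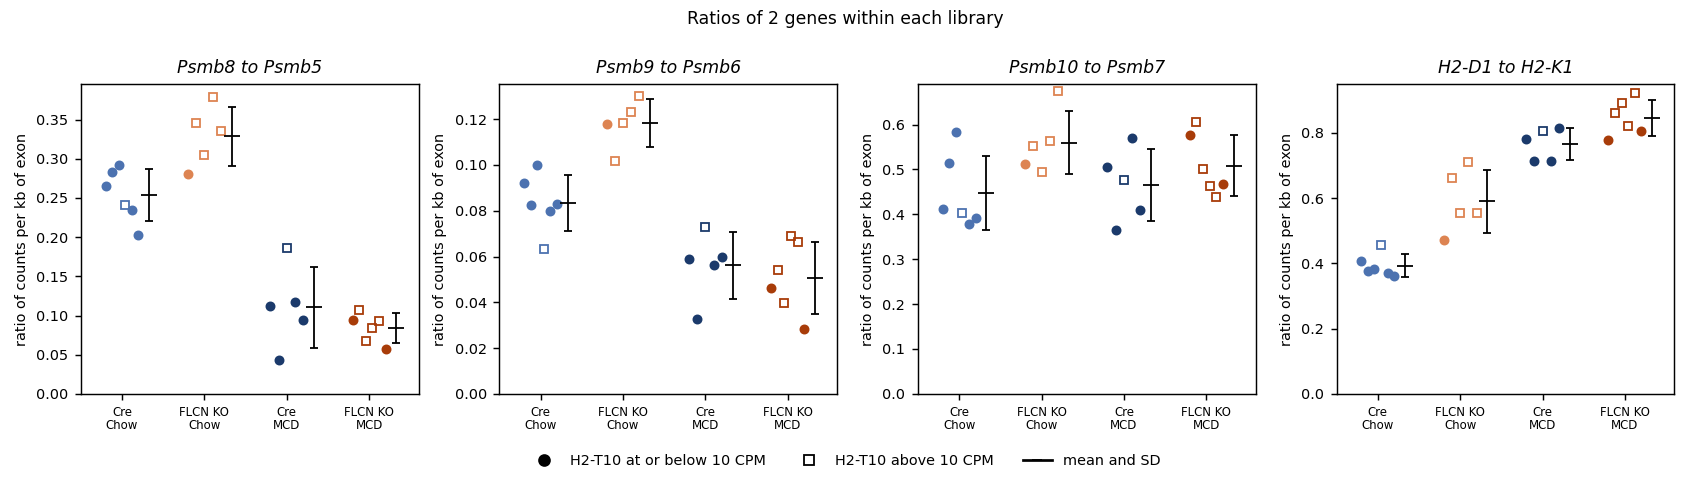
Ratio of counts per kb of exon of 2 genes in each of the 22 livers (vertical axes from 0) by genotype and diet, with the mean and SD of each group, and open squares for libraries with H2-T10 above 10 CPM. Psmb8 to Psmb5 and Psmb9 to Psmb6 are lower on MCD in both genotypes, Psmb10 to Psmb7 overlaps between diets, and H2-D1 to H2-K1 is higher on MCD.

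Ratios among the heavy chains, the light chain and the transporter were computed after the levels had been seen and are given without a test. H2-D1 to H2-K1 was 0.392 ± 0.035 (SD, n = 6) in Cre mice on chow, 0.766 ± 0.049 (n = 5) on MCD, and 0.591 ± 0.096 (n = 5) and 0.846 ± 0.055 (n = 6) in knockout mice on chow and MCD. H2-D1 to B2m was 0.0836 ± 0.0085 and 0.203 ± 0.036 in Cre mice and 0.0712 ± 0.0052 and 0.124 ± 0.033 in knockout mice, higher on MCD in both. Tap1 to Tap2 was 0.62 ± 0.118 and 0.60 ± 0.128 in Cre mice on chow and MCD and 0.459 ± 0.070 and 0.367 ± 0.089 in knockout mice. With group means removed, H2-K1 and H2-D1 had the closest levels of any pair of members across the 22 libraries (Pearson r = 0.94 of log2 CPM), a description over libraries that share depth, H2-T10 state and read assignment.

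Of 14 other heavy chains of the MHC listed, 12 could be tested (H2-T3 and H2-M5 had too few counts). With the MCD diet 4 rose and 3 fell in Cre mice (5 rose and 0 fell with scaling by total count). These counts lie near the share of all genes, of which 29.3% rose and 28.2% fell (56.2% and 12.4% with scaling by total count). The median log2 fold change was -0.06 against 0.01 over all genes. H2-Q1 (1.91, adjusted p = 0.025), H2-Q2 (1.32, adjusted p = 0.00726) and H2-M3 (0.82, adjusted p = 0.000721) had the largest increases among those above 1 CPM. H2-Q1 overlapped between the diets, at 2.93 to 18.2 CPM on chow and 3.98 to 68.3 CPM on MCD. H2-Q2 overlapped as well, and H2-M3 did not. H2-Q10 had a called slope on H2-T10, and the group comparisons of this list were not run with H2-T10 as a term. H2-Q10, a secreted class I molecule made by hepatocytes and the most abundant heavy chain in the list, fell by 0.44 (adjusted p = 0.0256) under TMM scaling and by 0.01 with scaling by total count, where it did not pass. In knockout mice 1 rose and 5 fell, against 22.5% of all genes each way (2 and 4, against 41.3% and 12.3%, with scaling by total count). The decreases were led by H2-T24 (-1.45, adjusted p = 1.96e-05), H2-Q7 (-1.38, adjusted p = 4.1e-07) and H2-Q10 (-0.86, adjusted p = 0.000185). H2-Q10 was at 2394 ± 509 CPM (SD, n = 6) on chow and at 1769.5 ± 139.9 CPM (n = 5) on MCD in Cre mice. In knockout mice it was at 2599 ± 508 CPM (n = 5) on chow and at 1436 ± 327 CPM (n = 6) on MCD.

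The counts for the general machinery that class I shares with other proteins are to be read against the share of all genes. Under TMM scaling the diet called 29.3% higher and 28.2% lower in Cre mice and 22.5% each way in knockout mice. With scaling by total count these were 56.2% and 12.4% in Cre mice and 41.3% and 12.3% in knockout mice. Of 6 genes of peptide loading and trimming, 2 rose and 4 fell in Cre mice (2 and 0 with scaling by total count), and 1 rose and 3 fell in knockout mice (2 and 1). Pdia3, a disulfide isomerase of the loading complex, fell by 0.66 (adjusted p = 7.48e-05) and 0.71 (adjusted p = 4.1e-05) on the log2 scale, and Abcb9, a peptide transporter of lysosomes, rose by 0.77 (adjusted p = 0.000103) and 0.65 (adjusted p = 0.000872). Of 5 genes of the proteasome activators and assembly, 1 rose and 4 fell in Cre mice, and 0 rose and 3 fell in knockout mice (1 and 1, and 1 and 0, with scaling by total count). Psme2, a subunit of the interferon-inducible activator, fell by 0.47 (adjusted p = 0.00012) in knockout mice. Of 11 other subunits of the 20S core, 0 rose and 4 fell in Cre mice and 2 rose and 1 fell in knockout mice (7 and 0, and 9 and 0, with scaling by total count).

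Of 15 regulators of class I transcription, 2 rose and 8 fell with the MCD diet in Cre mice and 1 rose and 9 fell in knockout mice (5 and 3, and 2 and 7, with scaling by total count). Of all tested genes 29.3% rose and 28.2% fell in Cre mice, and 22.5% went each way in knockout mice. With scaling by total count these were 56.2% and 12.4%, and 41.3% and 12.3%. Irf9 and Nfyb, a subunit of the CCAAT-binding factor NF-Y, were among the largest changes in both: Irf9 fell by 0.88 (adjusted p = 1.46e-07) and 1.08 (adjusted p = 1.55e-08), and Nfyb fell by 1.49 (adjusted p = 3.86e-08) and 0.94 (adjusted p = 1.7e-05), with the same sign under both scalings. Irf1 fell by 0.55 (adjusted p = 0.021) and 0.74 (adjusted p = 0.00381) under TMM scaling, whereas with scaling by total count it was -0.13 (adjusted p = 0.561) in Cre mice and -0.47 (adjusted p = 0.049) in knockout mice.

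Of 12 interferon-gamma responsive GTPases and chemokines, 0 rose and 10 fell with the MCD diet in knockout mice, and 1 rose and 4 fell in Cre mice (0 and 10, and 2 and 3, with scaling by total count). In all tested genes 22.5% rose and 22.5% fell with the diet in knockout mice, and 29.3% rose and 28.2% fell in Cre mice. With scaling by total count 41.3% rose and 12.3% fell in knockout mice, and 56.2% rose and 12.4% fell in Cre mice. All counts of this paragraph for the diet are to be read against these shares. The interaction was called for 4 of the 12, all negative (6 with scaling by total count), against 5.54% of all genes called lower. In knockout mice Gbp3 (-2.26, adjusted p = 5.64e-06), Igtp (-1.91, adjusted p = 2.51e-06) and Cxcl9 (-1.80, adjusted p = 0.000206) led. Igtp was at 81.7 ± 20.1 CPM (SD, n = 5) on chow and at 21.8 ± 4.5 CPM (n = 6) on MCD, and at 43.5 ± 18.4 and 29.8 ± 7.0 CPM in Cre mice. Cxcl10, a chemokine that draws T cells, rose in Cre mice by 1.83 (adjusted p = 5.95e-05), from 3.97 ± 1.53 to 14.2 ± 6.5 CPM, and on MCD was lower in knockout mice by 1.35 (adjusted p = 0.0051). Ifng, Ifnb1 and Socs1 had too few counts to be tested, and of the 7 other interferon receptor and kinase genes 3 rose and 2 fell in each genotype (4 and 1 in each with scaling by total count), with Ifngr2 rising by 0.82 (adjusted p = 3.79e-05) and 0.44 (adjusted p = 0.0129).

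**Figure D5:**
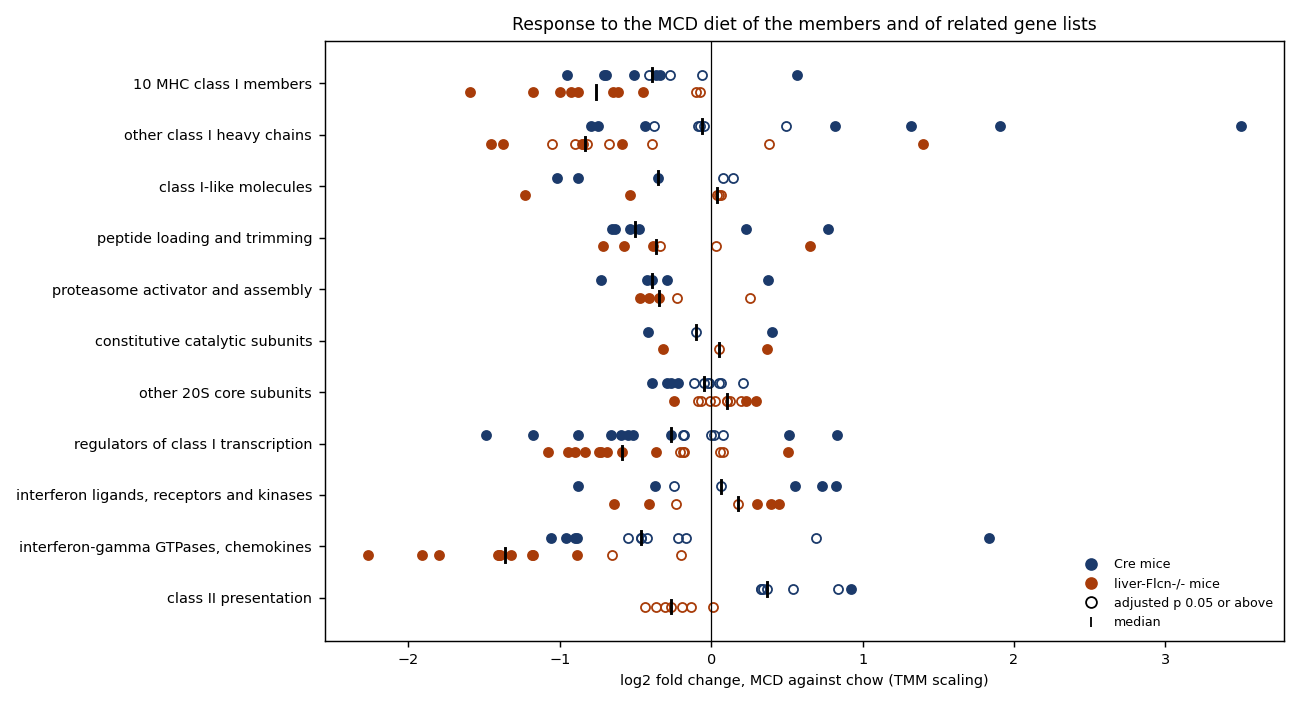
Log2 fold change with the MCD diet under TMM scaling (horizontal axis) of each tested gene of the 10 members and of 10 related lists, in Cre mice (blue) and knockout mice (red), filled where the adjusted p was under 0.05, with list medians as black bars. The interferon-gamma list has its median at -0.46 in Cre mice and -1.36 in knockout mice, and with scaling by total count these are -0.06 and -1.10.

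Among class I-like molecules, 0 rose and 3 of 5 fell in Cre mice under TMM scaling (2 and 2 with scaling by total count), and 0 rose and 2 fell in knockout mice (2 and 2). Of all genes 29.3% rose and 28.2% fell in Cre mice, and 22.5% went each way in knockout mice. With scaling by total count these were 56.2% and 12.4%, and 41.3% and 12.3%. Mr1, which presents microbial vitamin metabolites, fell by 0.88 (adjusted p = 0.000362) and 1.23 (adjusted p = 1.08e-05), and on chow was higher in knockout mice by 0.73 (adjusted p = 0.0121). Fcgrt, the neonatal Fc receptor, was higher in knockout mice on MCD by 0.45 (adjusted p = 0.00236). In the class II list, which marks professional antigen presenting cells, 1 of 7 genes, H2-DMb1 (0.93, adjusted p = 0.00625), rose in Cre mice and the median was 0.37, while in knockout mice the median was -0.26. With scaling by total count all 7 rose in Cre mice, against 56.2% of all genes.

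Markers of other cells moved with the same comparisons. In bulk liver, fewer cells of a type and less RNA per cell cannot be told apart. All 5 pan-leukocyte markers rose with the MCD diet in Cre mice (under both scalings, against 29.3% of all genes with TMM and 56.2% with scaling by total count), where their sum, led by Laptm5, went from 57.4 ± 11.8 to 117 ± 24 CPM, while in knockout mice it was 71.9 ± 4.5 and 69.1 ± 16.6 CPM. On MCD 4 of the 5 were lower in knockout mice, against 8.53% of all genes. All 6 markers of monocyte-derived macrophages, led by Gpnmb, rose in Cre mice (sum 3.97 ± 0.77 to 170 ± 96 CPM), and 3 rose in knockout mice (13.2 ± 7.1 to 156 ± 78 CPM). Gpnmb alone made up 129 ± 84 CPM of the sum on MCD in Cre mice and 137 ± 73 CPM in knockout mice, and the interaction was negative and called for all 6, against 5.54% of all genes. Which cells gave the Gpnmb reads in either genotype was not tested, so the sum does not by itself measure macrophages. On chow 3 of the 6 (Gpnmb, Cx3cr1 and Trem2) were higher in knockout mice, against 5.52% of all genes, in the comparison in which B2m was higher. With the MCD diet in Cre mice 6 of the 10 members were called lower under TMM scaling, against 28.2% of all genes. With scaling by total count 2 were, against 12.4% of all genes.

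The summed CD8 T and natural killer cell markers, led by Cd3g, were low throughout: 4.78 ± 2.14 and 6.503 ± 1.839 CPM in Cre mice on chow and MCD, and 9.36 ± 1.15 and 5.02 ± 1.38 CPM in knockout mice. Of the 10 markers 6 could be tested (not Cd8a, Cd8b1, Prf1 and Ncr1), and 1 rose in Cre mice and 4 fell in knockout mice (1 and 2 with scaling by total count). Of 6 hepatocyte markers 1 rose and 5 fell in Cre mice and 0 rose and 4 fell in knockout mice (1 and 3, and 1 and 2, with scaling by total count). Of 6 liver endothelial markers 1 rose and 3 fell in Cre mice, and 0 and 4 in knockout mice (2 and 2, and 1 and 2). Kupffer cell markers, led by Cd5l, summed to 391 ± 74 and 370 ± 132 CPM in Cre mice and 449 ± 76 and 328 ± 95 CPM in knockout mice. Under TMM scaling the diet called 29.3% of all genes higher and 28.2% lower in Cre mice and 22.5% each way in knockout mice. No marker of these lists was at 0 in all libraries of a group. The part of these cell types in the member results was not tested.

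B cell markers summed to 3.34 ± 1.56, 3.17 ± 2.09, 5.77 ± 1.505 and 3.09 ± 0.92 CPM, dendritic cell markers to 2.81 ± 0.78, 7.87 ± 2.82, 4.34 ± 1.54 and 5.24 ± 1.13 CPM and neutrophil markers to 6.23 ± 3.20, 32.9 ± 17.1, 6.52 ± 2.17 and 18.7 ± 6.1 CPM in Cre mice on chow, Cre mice on MCD, knockout mice on chow and knockout mice on MCD. In the same order stellate cell markers summed to 294 ± 67, 497 ± 104, 319 ± 54 and 382 ± 34 CPM and cholangiocyte markers to 64.1 ± 18.0, 141 ± 23, 124 ± 47 and 119 ± 22 CPM. Dendritic cell, neutrophil, stellate and cholangiocyte sums were highest in Cre mice on MCD. The B cell, CD8 T and natural killer cell, Kupffer cell and liver endothelial sums were highest in knockout mice on chow. The part of these cell types in the member results was likewise not tested.

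The genes whose level was most like that of the members, of 9680 with a mean of at least 5 CPM outside the lists, were found by the Pearson correlation of log2 CPM with the mean z-score of the 10 members over the 22 libraries. They were Zap70 (r = 0.932), Irf7 (0.926), Tex261 (0.91), Rtp4 (0.905), Ces2e (0.901), Bst2 (0.899), Ube2u (0.897) and Dhx58 (0.897). Irf7, Rtp4, Bst2 and Dhx58 are known as genes that type I interferon induces. The libraries share diet and genotype, so the same was done with group means removed, where Icam1 (0.756), Tcirg1 (0.754), Fyb (0.739), Aif1 (0.738), Stk10 (0.712), Pitpnm1 (0.709), Slc15a3 (0.704) and Ifi27l2a (0.704) came first and none of the first 8 returned.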

How the data were processed

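Total RNA of 22 livers was made into mRNA libraries and sequenced as single-end reads. The submitters' processing notes name bcl2fastq, Trimmomatic, STAR and HTSeq and the build GRCm38. The authors deposited whole-number counts per gene, not normalized, with all replicates kept apart. Tool versions, the annotation release, the strand setting and a step that collapses unique molecular identifiers were not given in the sources used here, and the values were taken as counts of reads. All 22 columns were matched to sample labels (0 columns without a sample). Libraries held 13751347 to 21144388 counted reads, and over 50 pairs within groups the Spearman correlation was 0.909 to 0.926.

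Genes with a mean of at least 10 counts (14062) were fitted in R 4.3.3 with edgeR 4.0.16: TMM scaling, the 4 groups in 1 quasi-likelihood fit, two-sided tests, Benjamini-Hochberg adjustment over all tested genes and a threshold of 0.05. CPM are TMM-scaled. Exact permutation tests used mean log2 CPM with a prior count of 2, and the smallest p that 6 against 5 mice can give is 0.00216. P-values measure the spread between mice. Positions came from GENCODE M21 on GRCm38 and promoter windows from RefSeq GRCm38.p6. The fits were tested on simulated data.

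The members and gene lists were chosen with earlier results of these data known. From each list, at most 3 genes per comparison were named, those with the largest change among the called genes with a mean of at least 1 CPM, beside Psmb5, Psmb6, Psmb7, Irf1 and H2-Q10, and 1 further gene that is not reported here. The motif letters, the H2-T10 limit of 10 CPM and its term, scaling by total count and the ratios without a test were chosen after seeing the data. Alternatives were limma-voom (limma 3.58.1), DESeq2 1.42.0, RLE factors, other count filters, fits of only the groups compared, Xist or H2-T10 as a term, the replicate number as a block, leaving out 5 chow libraries whose reads aligned uniquely less often in the study's library statistics, and leaving out each library. The reads, protein and histology were not analysed here.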

Additional observations from a re-analysis of the deposited data

Results flagged for a closer look

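Of the 40 sets of values (10 members in 4 groups), 3 held a library whose gap to its nearest neighbour was large against the range of its group, by a rule that chance meets in about 1 in 20 sets. In Cre mice on chow, replicate 4 had the lowest H2-K1, 1027 CPM against 1433 CPM in the next library, and the lowest Tap1, 22.9 CPM against 31.2 CPM. In knockout mice on chow, replicate 4 had the highest Tap2, 61.2 CPM against 46.5 CPM. Both livers had H2-T10 above 10 CPM (19.3 and 61.0 CPM), and the latter was the highest of the 22 libraries. Leaving either out changed the B2m call between genotypes on chow.

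For Tap1 and Psmb8 the response to the MCD diet differed between the genotypes by the interaction term of the fit (log2 difference -0.66, adjusted p = 0.025, and -0.64, adjusted p = 0.0485). The Psmb8 call was lost with H2-T10 as a term (-0.56, adjusted p = 0.0806). The fall was larger in knockout mice for both, while with scaling by total count the Tap1 value in Cre mice was 0.08 and the differences were -0.81 and -0.79.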

How the results depend on the processing

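With scaling by total count, chosen after seeing the data, 4 members were called for the MCD diet in Cre mice (7 with TMM), 5 in knockout mice (8) and 2 for genotype on chow (1). Without a count filter there were 0 for genotype on chow, 1 for genotype on MCD (4 in the report) and 1 for the interaction (2 in the report). Fitting only the groups compared gave 2 for genotype on chow and 1 on MCD. Without the 5 chow libraries whose reads aligned uniquely less often there were 0, 1 and 0 for the same 3 results, and 13 of 40 permutation tests passed (22). With H2-T10 as a term there were 0 on chow and 2 on MCD, and limma-voom gave 1 for the interaction. Leaving out each library gave 6 to 7 and 7 to 8 for the diet, 0 to 2 and 1 to 4 for genotype on chow and MCD, 1 to 2 for the interaction and 20 to 24 permutation tests. DESeq2 and RLE factors kept all 5 counts.

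Signs changed as follows. With scaling by total count the diet gave 0.0073 for H2-K1, 0.0847 for Tap1, 0.15 for Tap2, 0.0525 for Psmb10 and 0.36 for Nlrc5 in Cre mice, and 0.18 for H2-D1 and 0.16 for Nlrc5 in knockout mice. H2-D1 there was 0.0389 without the 5 chow libraries. Tap1 between genotypes on chow, -0.00 in the report, was 0.0098 with limma-voom, 0.0248 without a filter, 0.0179 with at least 10 counts in every library, 0.0205 with Xist, 0.0273 with only the groups compared, 0.0682 without the 5 libraries, 0.0677 with H2-T10 and 0.15 with scaling by total count. With H2-T10 as a term H2-K1 on chow was 0.11 and Tap2 on MCD -0.15. Leaving out 1 library gave -0.12 to 0.0313 (Nlrc5, diet in Cre mice), -0.19 to 0.0157 (H2-D1, diet in knockout mice), -0.0801 to 0.0281 (Tap1 on chow), -0.0426 to 0.18 (Tap2 on MCD), -0.0240 to 0.14 (Psmb10 on MCD), and -0.16 to 0.00019 and -0.13 to 0.0423 (Psmb10 and Nlrc5, interaction). The cause was not tested.

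The labels number different mice within each group and do not say whether equal numbers share anything, such as an order of collection. With the replicate block 7, 8, 1, 3 and 0 members were called (7, 8, 1, 4 and 2 without it). Across genes, deviations from group means correlated on average at -0.0842 for equal numbers in the Cre diets, at -0.0112 in the knockout diets, at 0.0614 over genotype on chow and at 0.129 on MCD. Single pairs of equal number varied most over genotype on chow, from -0.551 to 0.470.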

Other observations

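On chow, where 5.52% of all tested genes were called higher in knockout mice, the calls in the lists were 1 of 12 interferon-gamma responsive genes (Igtp, 0.91 on the log2 scale, adjusted p = 0.0213), 1 of 15 regulators (Rfxank, a subunit of the RFX complex, 0.67, adjusted p = 0.0413), 1 of 12 other heavy chains (H2-Q2, 2.30, adjusted p = 0.00054), 1 of 5 pan-leukocyte markers (Coro1a, 0.69, adjusted p = 0.0429) and 3 of 6 markers of monocyte-derived macrophages (Gpnmb, 3.04, Cx3cr1, 3.03, and Trem2, 1.65, adjusted p = 0.00816, 0.000185 and 0.0113), each also called with scaling by total count. The class I-like, Kupffer cell, liver endothelial and cholangiocyte lists held 1 call each. Of the 6 hepatocyte markers 1 (Ttr, -0.46) was called lower, also with scaling by total count. Against 3.10% of all genes called lower, 3 of 11 other subunits of the 20S core (Psma3, Psma4 and Psmb1, -0.24 to -0.28) and Psmb6 (-0.31, adjusted p = 0.0318) were lower under TMM scaling, and with scaling by total count none of these 4 was called.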
